A study of Mus musculus with 10 samples.

Results

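Of 8072 genomic regions bound by estrogen receptor α (ERα) in the arcuate nucleus or the anteroventral periventricular nucleus (AVPV) of the mouse hypothalamus, 989 (12.3%) held a peak that fell in an exon, an untranslated region (UTR) or a transcript end. The regions came from 25982 peaks of 8 chromatin immunoprecipitation (ChIP-seq) libraries, 4 from the arcuate and 4 from the AVPV, after peaks that shared at least 1 bp were merged. A region was a member where the centre of any of its peaks lay in a RefSeq exon or UTR, or from 100 bp before to 1 kb past a transcript end (a termination site), and outside every promoter, taken as 1 kb upstream to 100 bp downstream of a transcription start. Arcuate lists held 3251 to 4079 peaks and AVPV lists 2367 to 3347. Read depth was not analysed here, so the length of a list stands in for the depth behind it.

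All mice were female C57BL/6 animals, ovariectomised, given an implant of estradiol at 0.1 mg/mL in sesame oil, and later injected with estradiol benzoate at 0.05 mg/kg. Tissue was taken 28 h after the injection, so both nuclei were estrogen-treated and no untreated group was sequenced. Libraries were made from pooled chromatin, and the sources used here do not say whether each had a pool of its own, so the spread between libraries may be technical. In bulk tissue, fewer cells with ERα at a site and less binding per cell cannot be told apart. Peak lists do not show which cells were bound, so the labelled nuclei could not be checked with marker genes.

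ERα is a ligand-activated transcription factor. It binds DNA as a dimer, classically at the estrogen response element, a palindrome of the half-site AGGTCA and its complement around a spacer. It can also sit at promoters through other factors, such as Sp1 and AP-1, without such an element. Most ERα sites in other tissues are distal enhancers in introns and between genes, while 5′ UTRs and first exons adjoin promoters and 3′ UTRs and transcript ends mostly lie far from them.

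The members fell into 5 parts. There were 411 in coding exons, 360 in 5′ UTRs, 121 at termination sites, 56 in 3′ UTRs and 41 in exons of non-coding transcripts, in 949 host genes. Most lay beside a start: 723 of 989 (73.1%) had their centre within 1 kb of one, the median distance was 227 bp, and 650 were in a first exon. Another peak of the same region had its centre in a promoter in 303 members, and 686 had none. The 5′ UTR members lay a median of 158 bp from the nearest start, against 309 bp for coding exons, 2073 bp for termination sites and 17.4 kb for 3′ UTRs. Past a transcript end the median was 613 bp, and 64 of the 121 termination sites were within 5 kb of the start of another gene, so that the part names the host and not the nearest start.

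Member parts cover 3.37% of the genome and held 8.54% of all peaks, a ratio of 2.53. The ratio was 36.6 for 5′ UTRs, above the 27.7 of promoters, then 2.48 for coding exons, 2.22 for non-coding exons, 1.05 for termination sites and 0.712 for 3′ UTRs, beside 0.855 for introns and 0.489 between genes.

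Sequences are shown first for members with the closest matches to the estrogen response element, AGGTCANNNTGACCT, which is 15 bases long with 12 fixed bases. They belong to members named by fixed rules of strength, separation between the nuclei or closeness of the match, and they include members beside starts and members far from them. Each is read 5′ to 3′ on the plus strand of mm10, with the element in capitals and 7 bases on either side:
Exoc2: tgcctgcAGGTCACAATGACCTgactcta
Map4k5: ctttaaaAGGTCACAGTGACCTtcagcaa
Pgap4: agatgccAGGTCACTGTGACCTgcggggg
Pdxk: tcctgggATGTCAGGCTGACCTggggaca
Dpp6: agcaccaAGGTCGCTGTGACCTggctgaa
Emilin2: acagcagAGGGCACGCTGACCTtggtagc
Golt1a: ctggtggAGGCCAATCTGACCTggctttc
Dst: aagctccAGATCACTCTGACCCgctccct
Tktl2: gctgttcAGGGCACAGTGCCCTggatgct
Armc6: gtggagaAGGGCAAGGTGACCCagtccaa
Map2k7: agggagaGGGTCACGGTGACCTggaagtc
Gm15408: cctgtccGGGTCACTCTGACCTcaatagc
Micos10: gagccggAGGTGACCCTGACCTtggagat
Asxl1: acacacaAGGTCAGTTTGACATcaaatac

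The elements of Exoc2, Map4k5 and Pgap4 matched all 12 fixed bases. The element of Exoc2, an exocyst subunit, lay at chr13:30814370-30814398 in the 3′ UTR, exon 28 of 28, in a region with peaks in 3 arcuate and 3 AVPV libraries. That of Map4k5, a kinase of the stress-activated cascades, lay at chr12:69827545-69827573, in the intron beside exon 17 of 32, and its region had peaks in the 4 arcuate libraries, with none from the AVPV. That of Pgap4, an enzyme of GPI-anchor remodelling, lay at chr4:49596975-49597003 just inside the intron after the 5′ UTR, in a region of 8 libraries.

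Elements with 1 mismatch stood in other members called in every library. Pdxk, pyridoxal kinase, had its element at chr10:78438104-78438132 in the 3′ UTR (exon 11 of 11) with the substitution G2T, counted from 1 at the 5′ end of the element with the consensus base first. Dpp6, which encodes an auxiliary subunit of A-type potassium channels, had it at chr5:27652211-27652239 in coding exon 11 of 26 (A6G), 139 kb from the nearest start. Emilin2, an extracellular matrix glycoprotein, had it at chr17:71251418-71251446 past the transcript end (T4G). The distance from the element to the summits of the 8 peaks ranged from 6 to 38 bp in Pdxk and from 2 to 38 bp in Dpp6, and over the 9 peaks of Emilin2 it ranged from 10 to 229 bp.

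Beside starts, 3 members called in every library also had an element with 1 mismatch. Map2k7, a kinase that activates JNK, was centred 110 bp from a start (A1G at chr8:4239168-4239196), Gm15408 284 bp (A1G at chr5:149007162-149007190) and Micos10 140 bp (C5G at chr4:139131177-139131205). The elements of Map2k7 and Micos10 lay in the promoter, and that of Gm15408 in a non-coding exon. Not every summit was near them. The distance ranged from 7 to 319 bp over 9 peaks of Map2k7, 1 to 922 bp over 11 of Gm15408 and 7 to 298 bp over 9 of Micos10. Armc6, past whose end an element had 2 mismatches (T4G, T15C at chr8:70219312-70219340), was called in the arcuate libraries alone.

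The site at the end of Golt1a, a Golgi transport gene, had 1 mismatch (T4C) at chr1:133323484-133323512, 44 to 83 bp from the 3 summits called there, and its region lay 3.725 kb from the start of Kiss1, which encodes kisspeptin. Percentiles of its peaks were 72.1, 52.4 and 35.9 in arcuate libraries 1, 2 and 3. Dst, which encodes a cytoskeletal linker, had 2 mismatches (G3A, T15C) at chr1:34211210-34211238 in coding exon 50. Tktl2, a transketolase-like enzyme, had 2 (T4G, A12C) at chr8:66517609-66517637 in the 3′ UTR. Asxl1, a Polycomb-associated factor, had 1 (C14A) at chr2:153405044-153405072, but this element was 56 to 156 bp from the summits and just outside the 1 kb window past the transcript end.

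Over all members, 132 (13.3%) held, no farther than 100 bp from a summit, an element with 2 mismatches or fewer, against 29.5% of all 8072 regions. Windows moved by 5 kb held one in 1.52% of members. The element itself lay in an exon, UTR or termination site in 105 of the 132, and in an intron in 20.

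The parts differed widely. An element stood in 33 of 56 members in 3′ UTRs (58.9%, 95% Wilson interval 45.9 to 70.8%, for counting error alone), in 32 of 121 at termination sites (26.4%), in 8 of 41 in non-coding exons (19.5%), in 44 of 411 in coding exons (10.7%) and in 15 of 360 in 5′ UTRs (4.17%). Coding exons were then divided by position, a division made with the values known: 5 of 279 members in first exons (1.79%) had an element and 39 of 132 in later exons (29.5%) did. By distance from the nearest start, the share was 3.16% of 570 members within 300 bp, 7.84% of 153 from 300 bp to 1 kb, 30.1% of 123 from 1 to 10 kb and 45.5% of 143 beyond 10 kb.

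In each library, member peaks carried the element less often than intron or intergenic peaks and more often than promoter peaks. The share was 26.4, 21.8, 18.5 and 9.39% in arcuate libraries 1 to 4 and 17.2, 16.1, 9.36 and 27.0% in AVPV libraries 1 to 4. Arcuate library 4 and AVPV library 3 were the lowest of their nucleus, and the nuclei overlapped. The mean was 18.2% ± 6.75 (SD, n = 8), against 3.86% ± 0.712 in promoters, 48.3% ± 5.79 in introns and 51.3% ± 6.32 between genes. All 8 libraries were above promoters and all 8 below introns and intergenic sites (exact two-sided sign-flip test, p = 0.0078 and adjusted p = 0.0078 for each, the smallest that 8 libraries allow). Libraries share many sites, and a shared site brings the same bases to each, so these p-values cover only the spread between libraries. The differences did not separate the nuclei (exact permutation test, p = 0.171 for introns, 0.171 for intergenic sites and 0.8 for promoters). With the promoter widened to 1 kb downstream, which removes the members beside starts, the difference shrank to -5.98 points from introns (p = 0.109) and -2.91 from intergenic peaks (p = 0.242, exact sign-flip tests).

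Peaks in 3′ UTRs went the other way. With 11 to 32 such peaks per library, 69.6% ± 7.42 (SD, n = 8) had an element, 21.3 percentage points above introns (SD of the difference 8.08) and higher in 8 of 8 libraries (exact sign-flip test, p = 0.0078, adjusted over the 5 parts 0.0098). Values ran from 58.8 to 77.8% among arcuate libraries and from 58.3 to 72.7% among AVPV libraries. Peaks in coding exons, 5′ UTRs and non-coding exons were below introns in 8 of 8 libraries (adjusted p = 0.0098 each, exact sign-flip test), and termination sites were at 43.9% ± 9.02, 4.38 points below introns and higher in 3 of 8 (p = 0.0859, exact sign-flip test). These comparisons of single parts with introns were chosen with the values known. The 8 libraries held 151 peaks in 3′ UTRs in all, while 56 members were in 3′ UTRs. A site called in several libraries brings the same bases each time, so the libraries are not independent tests of the element. Without arcuate library 4 and AVPV library 3 the 3′ UTR difference was 20.4 points.

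**Figure D1:**
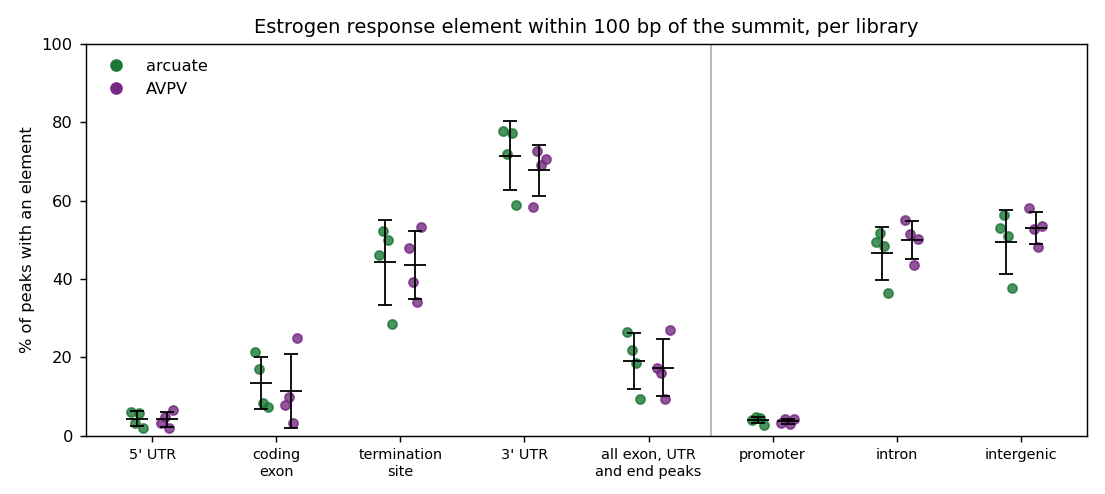
Percentage of peaks in each library that hold an estrogen response element (2 mismatches or fewer) near the summit, by the annotation of the peak centre. Points are libraries (4 arcuate, 4 AVPV), bars the mean and SD; 3′ UTR peaks lie at 58.3 to 77.8%, above introns, while 5′ UTR peaks lie near promoters.

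Other sequence features also differed between the classes of peaks. Within 100 bp of the summit, GC content had a median of 66.2% in 5′ UTR and in coding exon peaks, 62.7% in promoters, 53.7% at termination sites and 49.8% in 3′ UTRs, with 48.8% in introns. The motif CCGGAAG of ETS factors, searched on both strands, stood in 33.4% of 5′ UTR peaks, 35.3% of promoter peaks, 18.5% of coding exon peaks, 1.32% of 3′ UTR peaks and 14.8% of all peaks. The Sp1 motif GGGCGG stood in 40.2, 42.5, 32.5, 1.32 and 20.3% of the same classes, and in 3.92% of member windows moved by 5 kb. The AP-1 motif TGANTCA went in the other direction, with 2.16% of 5′ UTR peaks, 10.6% of 3′ UTR peaks and 6.44% of all peaks. Windows moved by 5 kb held it in 7.04, 4.64 and 5.90% of these classes, so over all peaks it was near this background. These shares are descriptions of letters in a window, and overlapping peaks of different libraries count separately.

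The number of libraries that called a member was spread towards both ends. From 1 to 8 libraries there were 380, 128, 75, 55, 50, 62, 42 and 197 members. Single-library members were 38.4% of all (background 41.5% of all regions), and 19.9% were called in all 8 libraries, against 13.5% of all regions. A region with more peaks has more chances to hold one that is centred in an exon, and of members without a promoter peak 55.4% were in 1 library and 9.18% in 8. Members were 11.3% of regions in 1 library and 18.1% of regions in 8 when all are counted, and 11.3% and 5.79% when those with a promoter peak are left out. Of 3′ UTR members, 29 of 56 were in 1 library and 3 in 8. Of 5′ UTR members, 101 of 360 were in 1 and 98 in 8.

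**Figure D2:**
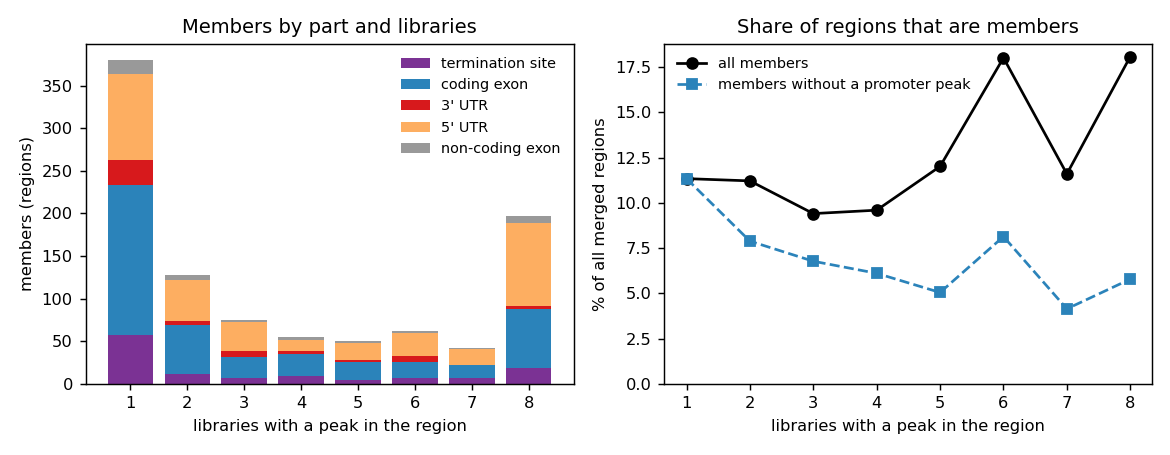
Left, members by the number of libraries with a peak (380 in 1 library, 197 in all 8), coloured by part. Right, members as a percentage of all merged regions with that number of libraries; the line for all members ends at 18.1% and that for members without a promoter peak at 5.79%.

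Single-library members came mainly from 2 libraries. Arcuate library 4 gave 152 and AVPV library 3 gave 73 of the 380, with 25, 56 and 30 from arcuate libraries 1 to 3 and 9, 17 and 18 from AVPV libraries 1, 2 and 4. Members made up 17.5% of the regions called in arcuate library 4 alone and 14.7% of those called in AVPV library 3 alone, against 4.19 to 10.9% for the other libraries. In these 2 sets the element was rare, in 5 of 152 members and 1 of 73. It was also rare among non-member regions called in the same library alone (2.64 and 9.00%, against 18.7 to 37.2% for the other libraries). Among single-library members of the other libraries, the share was 3.33% in arcuate library 3 (1 of 30). In the rest it ran from 8% in arcuate library 1 to 27.8% in AVPV library 4. Without arcuate library 4 and AVPV library 3, 652 members were left.

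The strongest single-library members were in Mbd2, Tor1a and Pank1. Mbd2, a reader of methylated DNA on chromosome 18, had 3 members, all called in AVPV library 1 and in no other. The 3 peaks stood on the last 3 exons in a row: exon 5 of 7 (178 bp long, 77.2% of the peak inside it, fold enrichment 7.06), exon 6 (139 bp, 55.6%, 5.19) and exon 7 (468 bp, 93.9%, 10.5). None had an element. The member in the first coding exon of Tor1a, which encodes torsin A, was called in arcuate library 4 at percentile 79.1, and that in the 5′ UTR of Pank1, a kinase of coenzyme A synthesis, in arcuate library 4 at 69.0.

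Few genes had several members. Of 949 host genes, 916 had 1, 27 had 2 and 6 had 3 or more. Ahnak2, a large scaffold protein, had 4, all in arcuate library 4 and all inside its long exons 7, 8, 9 and 10 (1554 to 5249 bp), with fold enrichments of 3.34 to 5.20. Usp24, a deubiquitinase, had 3, of which that in exon 20 of 68 was called in arcuate library 2 (fold enrichment 5.92) and AVPV library 4 (6.43).

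Peak strength is given as a percentile, the rank of a peak's fold enrichment within its own library, from 0 (weakest) to 100, because the background is set for each library. The median percentile of member peaks was 52.8, 45.0, 52.0 and 44.8 in arcuate libraries 1 to 4 and 47.7, 50.4, 42.4 and 47.6 in the AVPV. The nuclei overlapped. The mean was 47.8 ± 3.68 (SD, n = 8) and lay 7.64 below promoter peaks (55.5 ± 3.45; lower in 7 of 8 libraries; exact sign-flip test, p = 0.0156, adjusted p = 0.0469). Without arcuate library 4 and AVPV library 3 the difference was -5.95 (exact sign-flip test, p = 0.0625). From introns it differed by -1.64 (p = 0.344) and from intergenic peaks by 1.54 (p = 0.25, exact sign-flip tests), less than the spread between libraries.

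With the 5′ UTRs left out, member peaks were at 44.2 ± 3.59 and below introns by 5.20 (lower in 7 of 8 libraries, exact sign-flip test, adjusted p = 0.0234) and promoters by 11.2 (lower in 8 of 8, adjusted p = 0.0234, exact sign-flip test). Their difference from intergenic peaks was -2.02 (p = 0.188, exact sign-flip test).

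The strongest members called in all 8 libraries lay beside a start. The percentile given for a library is that of the strongest peak of the region, which in members with a promoter peak may be that peak. Kmt5b, a histone H4 lysine 20 methyltransferase, led (chr19:3767167-3768882, 5′ UTR, 137 bp from the start), with fold enrichments of 54.1, 72.1, 67.2 and 78.5 in arcuate libraries 1 to 4 and 58.8, 77.5, 91.1 and 73.2 in AVPV libraries 1 to 4. Its percentile was 100 in 5 libraries and 99.85 or higher in the others.

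The others had varied roles. Sfswap, a splicing regulator (chr5:129500255-129502259), had percentiles of 99.9 to 100 in arcuate libraries, and its AVPV range was 99.6 to 99.8. Brpf1, a scaffold of histone acetyltransferase complexes (chr6:113306342-113308221), had 99.7 to 99.8 and 99.9 in every AVPV library. Smarce1, a subunit of the SWI/SNF remodelling complex (chr11:99229714-99231482), had 97.5 to 99.5 in the arcuate, and its highest AVPV value was 99.6. The 10 strongest also held Zfp668 and Armc8, the clathrin heavy chain gene Cltc, the non-coding 1700028E10Rik, and 2 termination sites: that of Pdpk1, the kinase that activates AKT, which was 108 bp from the start of Kctd5, and that of Mir7672. None of the 10 had an element.

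Members called in all 8 libraries and over 1 kb from any start numbered 18 of 197. This set was chosen with the values known. It held 12 members with an element, beside 168 of 239 intron regions called in 8 libraries (70.3%). Among the 12 were Pdxk, Dpp6, Emilin2, and the 3′ UTRs of Ssr3, a subunit of the translocon-associated complex, and Il7r, a cytokine receptor. For Pdxk (chr10:78437937-78438440) the percentiles were 94.6, 97.5, 95.4 and 76.5 in the arcuate and 87.5, 85.4, 91.4 and 92.2 in the AVPV. For Dpp6 (chr5:27651707-27652460) they were 91.2, 89.2, 91.2 and 84.9, and 73.0, 86.4, 78.7 and 86.9. Neither differed between the nuclei beyond the spread (exact permutation p = 0.771 and 0.0857 before adjustment).

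The design asks whether the arcuate and the AVPV, which relay negative and positive feedback of estrogen, differ in where ERα binds. Member peaks made up 6.03, 8.66, 9.17 and 13.2% of the peaks in arcuate libraries 1 to 4 and 6.63, 7.59, 10.2 and 6.18% in AVPV libraries 1 to 4. The ranges overlapped, with the highest value of each nucleus in arcuate library 4 and AVPV library 3. The means were 9.27% ± 2.96 and 7.66% ± 1.81 (SD, n = 4 each), a difference of 1.61 points (exact two-sided permutation test, p = 0.429; 0.0286 is the smallest that 4 against 4 allow). The difference was 0.296 points without arcuate library 4, 2.69 without arcuate library 1 and 2.46 without AVPV library 3. Of the parts, 3′ UTR peaks were 0.664% ± 0.138 in the arcuate and 0.471% ± 0.0747 in the AVPV (exact permutation p = 0.0857, adjusted over the 5 parts 0.429). The unadjusted p of the other parts was 0.343 to 0.886 (exact permutation tests).

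Members far from a start did separate the nuclei. Peaks in member parts and over 1 kb from any start, which are those left when the promoter is widened to 1 kb downstream and were picked out with the values known, were 99, 113, 88 and 93 in number in arcuate libraries 1 to 4 and 43, 50, 66 and 65 in AVPV libraries 1 to 4. As a share of each list they were 2.43, 2.92, 2.71 and 2.68% in the arcuate and 1.82, 1.97, 1.97 and 2.12% in the AVPV. Every arcuate library was above every AVPV library. The means were 2.68% ± 0.202 and 1.97% ± 0.126 (SD, n = 4 each), a difference of 0.714 points (exact permutation p = 0.0286, the smallest possible and unadjusted). Without arcuate library 4 and AVPV library 3 it was 0.715 points (p = 0.1, the exact permutation test's smallest for 3 against 3). The other peaks over 1 kb from a start overlapped, at 45.1 to 66.0% and 45.6 to 60.9% (difference 3.82 points, exact permutation p = 0.514). As a share of all peaks over 1 kb from a start, the members were 4.59% ± 0.844 against 3.60% ± 0.381, and arcuate library 1 (3.55%) overlapped the AVPV (3.32 to 4.15%; exact permutation p = 0.0857). Member peaks within 1 kb of a start ranged from 3.60 to 10.5% among arcuate lists and from 4.05 to 8.25% among AVPV lists (p = 0.629, exact permutation test).

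**Figure D3:**
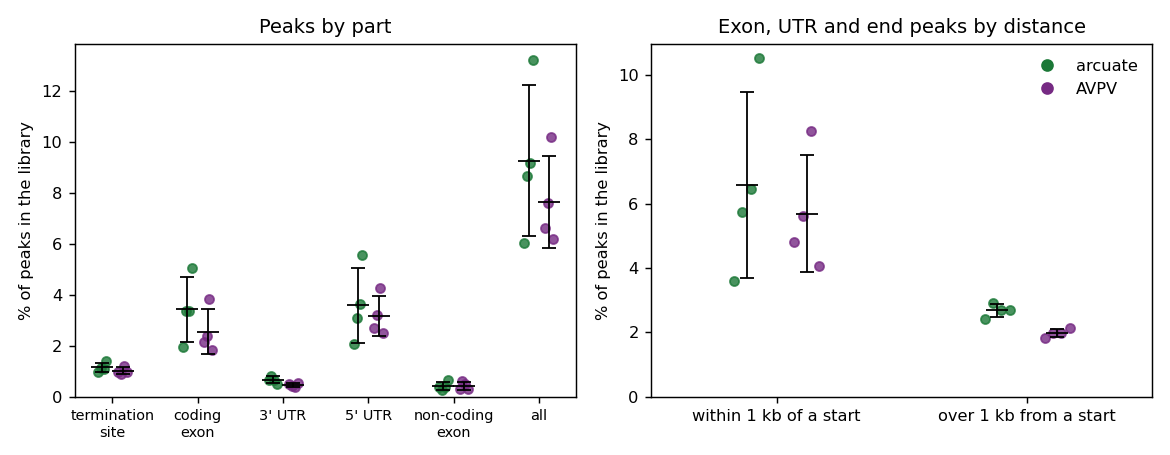
Member peaks as a percentage of all peaks in each library, by part (left) and by distance from the nearest transcription start (right). Points are libraries, bars the mean and SD; only the group over 1 kb from a start, at 2.43 to 2.92% and 1.82 to 2.12%, does not overlap between the nuclei.

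Counted as regions called in at least 2 of 4 libraries, 148 members (15.0%; background 18.8% of all regions) were sites of the arcuate only, 46 (4.65%; background 9.03%) of the AVPV only and 350 (35.4%; background 26.5%) of both, and 445 reached 2 libraries in neither. With 1 library left out, a site of its nucleus needed peaks in 2 of the libraries left, so counts fell over all regions too. Without AVPV library 3 the AVPV-only sites fell from 46 to 19 (2.18%; background 6.39%). Without AVPV library 2 they fell to 29 (3.03%; background 7.18%). Without arcuate library 4 the arcuate-only sites were 101 (12.8%; background 17.9%). Beyond 1 kb of a start, 56 of 266 members (21.1%) were arcuate only, 12 (4.51%) AVPV only and 53 (19.9%) both. The arcuate-only and both shares were near those of intron regions that are not members (22.5, 9.75 and 20.2%). Intergenic regions had 22.8, 11.1 and 20.7%. Within 1 kb the counts were 92, 34 and 297 of 723 (12.7, 4.70 and 41.1%). Among coding exon members in later exons, 39 of 132 were arcuate only and 5 AVPV only, beside 31 and 7 of 279 in first exons.

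**Figure D4:**
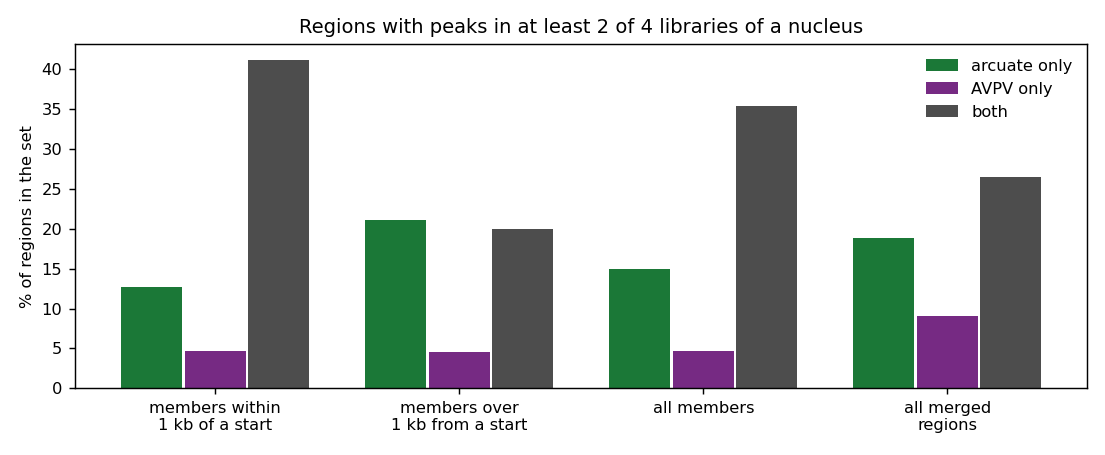
Percentage of regions called in at least 2 of 4 libraries of the arcuate only, the AVPV only or both, for members within 1 kb of a start (723), over 1 kb (266), all members (989) and all merged regions (8072). Bars are counts of regions with no replicate error; sites of both nuclei are 41.1% near a start and 19.9% farther away.

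On the strictest contrast, 15 members (1.52%; background 2.13%) had a peak in each of the 4 arcuate libraries but none in the AVPV, and 2 (0.202%; background 0.818%) had the reverse. By Fisher's exact test per region no region passed after Benjamini-Hochberg adjustment over all 8072 (smallest adjusted p = 0.969), while 238 had an unadjusted p of 0.0286. That p is the smallest that 4 against 4 libraries allow, and only regions of this contrast reach it. With 238 of 8072 at this floor none could pass, so the test cannot show that the sites are alike. Of the 17 members 14 were over 1 kb from a start, 11 were in coding exons and 9 had an element. Most regions of this contrast lay away from promoters. Of all 172 arcuate regions 68 were intron and 79 intergenic regions, and of all 66 AVPV regions 27 and 31. With 1 library left out, only the libraries left had to meet the contrast, which loosens it. On these terms there were 28 arcuate members without arcuate library 4. The AVPV count was 4 without arcuate library 1 or AVPV library 4. The same counts over all regions were not made, so these are not results about members.

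The strongest of the 15 were in genes with varied roles. The 3′ UTR of Adh7, a retinol-oxidising alcohol dehydrogenase (chr3:138231106-138231369), had percentiles of 90.4, 78.1, 90.2 and 79.1 in arcuate libraries 1 to 4. The 3′ UTR of Tktl2 (chr8:66517432-66517878) had 93.3, 88.6, 74.2 and 69.0, and coding exon 50 of Dst (chr1:34211064-34211687) had 85.5, 78.8, 63.2 and 74.3. The high ranks of these 3 in the arcuate lists and their lack of AVPV peaks follow from the rule that picked them.

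The other named arcuate members were Polr3d, a subunit of RNA polymerase III (exon 8 of 9), with percentiles of 52.2 to 83.2, Rsad1 in its first coding exon with 45.0 to 67.5, and the end of Armc6 with 87.9, 87.0, 82.9 and 43.7. The lowest value of Armc6 was that of arcuate library 4. Of the AVPV members, the end of Asxl1 (chr2:153404836-153405280) had 38.4, 1.8, 66.2 and 39.0 in AVPV libraries 1 to 4. The site of Asxl1 was barely called in AVPV library 2.

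Among the 197 members called in all 8 libraries, the percentiles of the nuclei did not overlap in 28 with the arcuate higher (background 14.2% of 1089 regions called in 8 libraries) and in 13 with the AVPV higher (background 6.8%). Both shares of the 197 members lie close to the background. Without AVPV library 3, the arcuate was higher in 49 of the members called in every library left. Both the call in every library and the lack of overlap are easier to meet with fewer libraries. The share over all such regions was not counted, so this is not a result about members. The exact permutation test called none after adjustment over the 1089 regions (smallest adjusted p = 0.136), and 229 regions had an unadjusted p of 0.0286. As that is the smallest p possible, the adjusted p could not be lower with 229 regions at it. Of the 41 members, 39 were within 1 kb of a start, as were 179 of all 197 members called in 8 libraries.

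The widest gaps in favour of the arcuate were in Ncstn, Farsa, Emilin2, Nek9 and Tmem185b. Ncstn, the γ-secretase subunit nicastrin (chr1:172082327-172083247, coding exon 1, 118 bp from the start of Copa), had percentiles of 70.04, 85.7, 84.4 and 75.4 in arcuate libraries 1 to 4 and 3.7, 43.5, 45.9 and 14.3 in AVPV libraries 1 to 4. The means were 78.9 ± 7.46 and 26.8 ± 21.1 (SD, n = 4 each; exact permutation p = 0.0286, adjusted p = 0.136). Emilin2, the only one of the 5 far from a start, had 74.5, 69.6, 74.2 and 75.4 in the arcuate and 45.2, 1.1, 32.3 and 23.3 in the AVPV. Differences of means were 48.4 for Farsa, a phenylalanyl-tRNA synthetase subunit, 47.7 for Nek9, a mitotic kinase, and 37.6 for Tmem185b, with the same p-values.

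In favour of the AVPV the widest gap was in Slc29a2, a nucleoside transporter (chr19:5023865-5024843, 5′ UTR), with 55.8, 25.6, 15.3 and 43.0 in the arcuate and 90.1, 88.8, 90.8 and 87.6 in the AVPV. The means were 34.9 ± 18.02 and 89.3 ± 1.40 (exact permutation p = 0.0286, adjusted p = 0.136). Stard7, a phosphatidylcholine carrier of mitochondria, had 25.6 ± 7.06 against 74.8 ± 8.25. The end of Lmnb2, a nuclear lamin, which was 110 bp from the start of Timm13, had 20.8 ± 13.2 against 56.4 ± 8.39. Micos10, of the mitochondrial cristae complex, had 54.4 ± 15.05 against 83.2 ± 4.83, and Ssr2, of the translocon-associated complex, 76.5 ± 10.4 against 94.9 ± 1.98 (SD, n = 4 each).

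**Figure D5:**
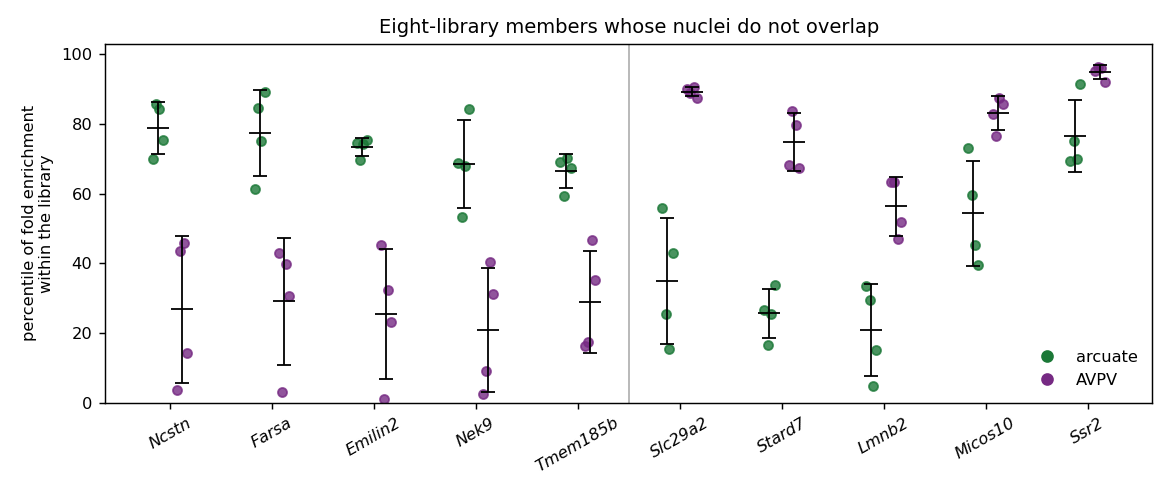
Percentile of fold enrichment in each library (vertical axis) for the 5 members per direction with the widest gap among those called in all 8 libraries whose nuclei do not overlap. Points are libraries, bars the mean and SD; Ncstn averages 78.9 in the arcuate and 26.8 in the AVPV, and Slc29a2 34.9 and 89.3. None passed adjustment in the exact permutation test (adjusted p = 0.136 each).

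Host genes were also counted in lists of neuroendocrine interest, with no test. Of 21000 genes with a coding RefSeq transcript, 891 (4.24%) hosted at least 1 member. Hosts were 2 of 57 classic estrogen target genes (3.51%), 3 of 66 genes for neuropeptides and their receptors (4.55%) and 3 of 64 for glutamate, GABA and monoamine receptors (4.69%). They were 5 of 55 genes for nuclear receptors and coregulators (9.09%), 5 of 61 for ion channels (8.20%) and 6 of 76 for membrane trafficking and vesicle fusion (7.89%).

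The peptide and receptor genes gave 3 sites. Npffr1, a receptor for RF-amide peptides, had a site in coding exon 4 of 4 (chr10:61625333-61625925) with an element of 2 mismatches. Its percentiles were 70.04, 64.3, 62.1 and 48.0 in arcuate libraries 1 to 4 and 17.8, 31.2 and 18.1 in AVPV libraries 2 to 4, with no peak in AVPV library 1. Every arcuate value was above every AVPV value. Pomc, the precursor of melanocortins and β-endorphin, had a site in exon 3 of 3 (chr12:3959983-3960317), with 14.7 and 8.5 in arcuate libraries 1 and 3 and 11.3, 39.3 and 55.7 in AVPV libraries 1 to 3, and no element. Adcyap1r1, the PACAP receptor, had a 5′ UTR site in AVPV library 2 alone at percentile 3.4.

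Of the nuclear receptors, the region past the end of Esrra, the estrogen-related receptor α (chr19:6909406-6910789), was called in 8 libraries at percentiles of 89.4 to 98.0 and lay 101 bp from the start of Prdx5. Thrb, the thyroid hormone receptor β, had a 3′ UTR site (chr14:18036582-18037050) with an element of 1 mismatch in arcuate libraries 1 to 3, at 66.5, 25.0 and 62.1, and in no AVPV library. Pgr, the progesterone receptor and a classic estrogen target, had 3 members, all in exon 1 and each in 1 library. They were in arcuate library 4 at 48.0 and in AVPV library 3 at 42.4 and 9.9, and none had an element. The member of Rab31, another estrogen target, was in AVPV library 3 alone at 28.6.

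Among the listed genes for channels and transmitter receptors no site was called in more than 2 libraries. Dpp6, the channel subunit called in all 8, was not on these lists. Kcnd2, an A-type potassium channel, was called in arcuate libraries 3 and 4 at 58.5 and 12.9, and Cacna1h, a T-type calcium channel, in the same libraries at 16.5 and 10.9. Hcn4, Adra2a, Htr5a and Grin2b were each called in 1 arcuate library, at 39.7, 29.4, 29.4 and 9.2. The trafficking genes were led by Cltc (98.2 to 98.9 among arcuate libraries, 99.4 to 99.7 among AVPV libraries) and Sec24a, a coat protein of COPII vesicles (82.1 to 93.9 and 71.5 to 92.1).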

How the data were processed

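ERα ChIP-seq peaks were analysed in 4 arcuate and 4 AVPV libraries, and the 2 input libraries were not used here. The authors aligned reads to mm10 with Bowtie2 2.5.0 and called peaks per library with MACS2 2.2.7.1, keeping those under a 5% false discovery rate. Deposited columns give a score, the fold enrichment (a ratio) at the summit, and −log10 p- and q-values. The score was not analysed. Peaks were merged at 1 bp and annotated by their centres with 45756 RefSeq transcripts of GRCm38, in the order promoter, termination site, coding exon, 3′ UTR, 5′ UTR, non-coding exon, intron and intergenic (Python 3.11.15, numpy 2.4.6, scipy 1.17.1, pysam 0.24.0). The promoter exclusion applied to the peak centre. Tests were exact, two-sided and over libraries, and p-values measure only the spread between libraries, which may be technical. Members and gene lists were chosen with earlier results of these data known. Named members followed fixed rules: the 10 highest median percentiles among eight-library members, the 6 highest lowest percentiles per nucleus among members of 1 nucleus, the 5 widest gaps per direction, the 8 closest elements in at least 4 libraries, the 3 strongest single-library members, the Golt1a site, and 3 members per gene list. Alternatives covered the promoter and termination windows, peak filters, list length, element search and each library left out; some, on the 2 libraries left out together and on sites far from a start, were chosen after seeing the data. Some members that these rules select are not reported here. Scripts were tested on simulated data.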

Additional observations from a re-analysis of the deposited data

Results flagged for a closer look

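Among 83 groups of 4 libraries tested for a value far from the others by Dixon's criterion, 3 were marked, and chance marks about 1 in 20. At the end of Armc6, arcuate library 4 had a percentile of 43.7 against 82.9 to 87.9 in the other arcuate libraries. At Mir7672, arcuate library 3 had 98.3 against 99.1 to 99.2, and at Kmt5b, AVPV library 1 had 99.9 against 100 in the other AVPV libraries. None of the 12 contrasts of members with another class differed between the nuclei at an unadjusted p of 0.05 (exact permutation tests).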

How the results depend on the processing

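Of 293 alternatives over 22 results, 249 were classed as unchanged. A tested difference had to keep its direction and its side of the 0.05 threshold. A count had only to stay within a fixed ratio of the main count. The cause of the other changes was not tested. Members numbered 266 with the promoter widened to 1 kb downstream, 640 at a fold enrichment above 5, 792 to 972 with 1 library left out and 652 without arcuate library 4 and AVPV library 3. That wider promoter made the difference in member share between nuclei 0.714 points (exact permutation p = 0.0286). Ending termination sites at 100 bp turned their difference to -0.0315. Leaving out 1 library gave -0.248 to 0.921 for 5′ UTRs and -0.0919 to 0.0548 for non-coding exons.

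Members in every library of 1 nucleus and none of the other were recounted. With 1 library left out they were 15 to 28 (arcuate) and 2 to 4 (AVPV). They were 32 and 4 without both libraries, and 4 (AVPV) at a fold enrichment above 5. Where libraries were left out, only those left had to meet the contrast. The same counts over all regions were not made. Sites of the arcuate only were 356 at 1 library and 86 at 4. Those of the AVPV only were 140 and 28, 19 to 64 with 1 library left out (background 6.29 to 12.7% of all regions), and 23 without both (background 8.35%). Sites of both were 197 at 4 libraries. Shares over all regions were counted only for the threshold of 2 libraries, and arcuate lists were mostly longer. The counts at 1 and 4 libraries are therefore not results about members.

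Strength minus promoters was -5.95 without both libraries. Minus introns it was 0.129 with −log10 q, -4.26 with summits annotated and -7.70 with the wider promoter, and minus intergenic peaks -1.68 and -3.93 with the last pair. With the wider promoter the element share differed by -5.98 from introns and -2.91 from intergenic peaks. The share far from a start differed by 0.987 points as a share of such peaks and by 0.715 without both libraries. Eight-library members that did not overlap were 17 (arcuate higher) and 5 (AVPV higher) with −log10 q. With 1 library left out, 29 to 49 of the members called in every library left had the arcuate higher. Shares over all regions were not counted for these settings.

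Replicate numbers were not shown to pair libraries, with same-numbered correlations of 0.0493, -0.0056, 0.0071 and -0.213. With a replicate block the member share differed by 1.61 points (exact sign-flip test, p = 0.625). The share far from a start differed by 0.714 points (exact sign-flip test, p = 0.125, the smallest for 4 pairs). Eight-library members with 1 direction in every pair were 57 (arcuate higher) and 20 (AVPV higher), with no count over all regions. Precision is limited by 4 libraries a nucleus and by list length.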
